A study of Mus musculus with 48 samples.

Results

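Gene expression was compared between libraries labelled as olfactory bulb astrocytes from mice at postnatal day 7 (P7) and at postnatal day 1 (P1). The libraries were chosen by their age and tissue labels, 3 at each age, and they make up 6 of the 48 bulk RNA-seq libraries of a study of astrocyte development in cortex, hippocampus and olfactory bulb. The study concerns inhibitory input to astrocytes and their GABA-B receptor. Libraries were made from 500 pg to 1 ng of total RNA with a low-input kit after dissociation of the tissue. The labels give the tissue (olfactory bulb), the cell type (astrocyte) and the age for both groups, and the P1 and P7 groups differ only in age there. Strain, genotype, sex, treatment, the number of animals behind a library and the promoter or sort that picked out the cells are not given in the sources used here. Another 3 olfactory bulb libraries, from postnatal day 14 (P14), stand in the same normalized table. They shared the estimate of spread and are given as levels only. Nothing in the labels says that the libraries of a group came from separate animals, so p-values measure the spread between these libraries, which may be technical.

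Astrocytes arise from radial glia late in neurogenesis and take on their mature functions after birth, when they clear transmitter from synapses, buffer potassium, couple through gap junctions and secrete matrix and lipid carriers. The olfactory bulb is unusual in that new GABAergic interneurons keep arriving as migrating neuroblasts after birth, while its projection neurons, the glutamatergic mitral and tufted cells, are born in the embryo. The metabotropic GABA-B receptor works as a pair of subunits encoded by Gabbr1, which binds GABA, and Gabbr2, which couples to G proteins.

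The libraries held 5473837 to 9062118 reads in genes at P1, 3965254 to 5095842 at P7 and 1773226 to 2669394 at P14, of which the ribosomal precursor Rn45s took 22.2% to 27.1%, 19.2% to 22.2% and 15.5% to 19.97%. The biological coefficient of variation estimated by edgeR was 12.9% within P1, 21.3% within P7 and 46.2% within P14. No pair of libraries was close enough to be a repeat of the same one. Values below are normalized read counts as deposited, given in the order of replicates 1, 2 and 3, and fold changes are differences of log2(value + 1), which understate the change of low genes.

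The labelled cell type was set against its markers and those of other cells. All 12 astrocyte identity genes were read at both ages, and their summed level was 5290.2, 7470 and 6368 at P1, 16417, 20522 and 11210 at P7, and 132960 to 150740 at P14. Per kilobase of exon, the median astrocyte identity gene stood at 30.8 at P1 and 81.7 at P7, while the median of the neuroblast and olfactory interneuron markers stood at 194 and 129. In these astrocyte-labelled libraries, the median neuroblast and interneuron marker was read more deeply per length than the median astrocyte marker at both ages. Both lists were wide: at P1 astrocyte genes ran from 0.48 (Gfap) to 317 (Slc1a3), the others from 0.97 (Th) to 1805 (Cd24a). At P7 the highest gene of either list was Slc1a3 (749), above Dcx (619). At P14 the neuroblast and interneuron median was the lower (23.9 against 335). The pan-neuronal median also stood above the astrocyte median at both ages (64.55 at P1, 84.92 at P7). The glutamatergic lineage median did so at P1 only (73.51, and 16.59 at P7). A bulk library cannot separate fewer cells of a type from less RNA per cell, and this holds for each marker below.

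P7 replicate 3 stood apart from the other P7 libraries. Among the genes called higher at P7 it was the lowest of the 3 P7 libraries in 76.8%, and among those called lower it was the highest in 74.6%, against 35.9% and 36.3% over all genes tested. These shares describe genes that the same contrast selected, and where leaving out one library moved the count of a gene list by more than 1.5 times, the count without it is given with the list.

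Of 11490 genes tested with limma, 1214 changed between P1 and P7 at an adjusted p under 0.05 (10.6%), 872 of them higher at P7 (7.59%) and 342 lower (2.98%). The rises were larger than the falls: the median log2 fold change was 1.57 among genes that rose and -0.82 among those that fell, 690 of the 872 rises reached 2-fold and 296 reached 4-fold, and 118 of the 342 falls reached 2-fold and 16 reached 4-fold. The median over all genes tested was 0.01. Every P7 library lay above every P1 library for 2839 genes (24.7%) and below it for 2601 (22.6%). The count of changed genes was 1396 without P7 replicate 3 and lay between 517 (without P7 replicate 2) and 663 when any one of the other 5 libraries was left out. With the P14 libraries left out of the fit it was 3565 of 11490, of which 2026 were higher and 1539 lower. Calls given below for that fit stand beside these totals, not beside those of the main fit.

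**Figure D1:**
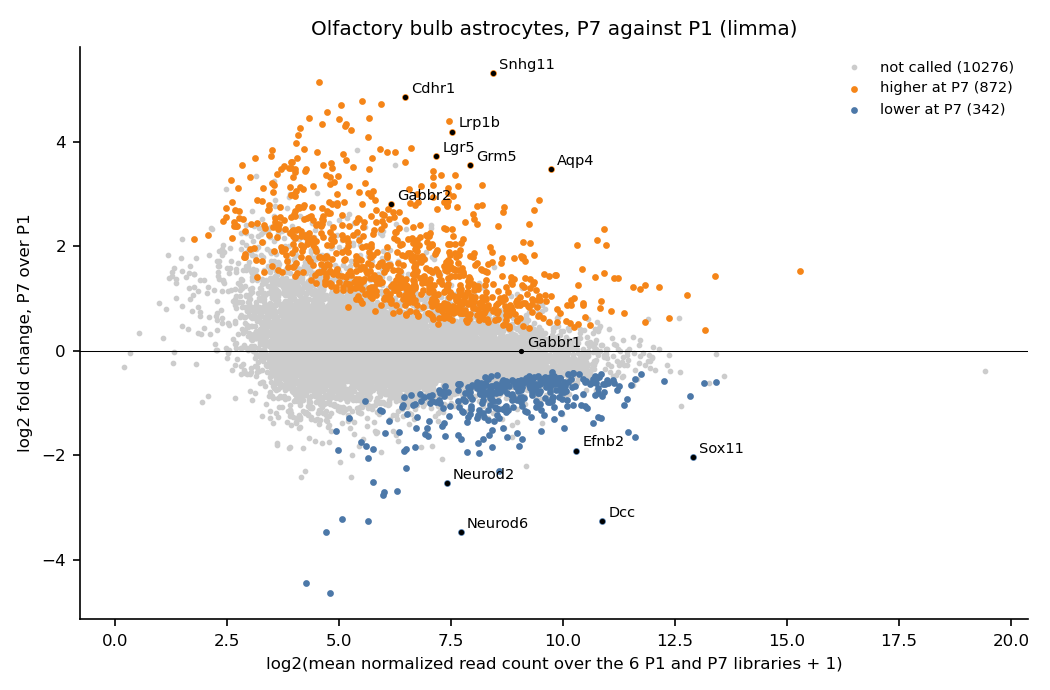
Log2 fold change, P7 over P1, against the log2 mean normalized read count over the 6 P1 and P7 libraries, 1 point per gene tested. The 872 genes called higher (orange) reach larger fold changes than the 342 called lower (blue), and Gabbr1 lies on the zero line while Gabbr2 stands at 2.81.

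The 12 largest rises among called, well-read genes whose ages did not overlap ranged from 3.36 to 5.32 on the log2 scale. Well-read genes are those at or above the median level of 71.4. Snhg11, a host gene of small nucleolar RNAs, was read at 10.8, 14.1 and 23.2 at P1 and 838, 751 and 432 at P7, a 42.1-fold difference of means (log2 5.32, SE 1.10, adjusted p = 0.0115). The groups were far apart, but the call was lost without P7 replicate 1 or without P7 replicate 2 (adjusted p up to 0.0558). Cdhr1, a cadherin-related protein that marks mitral and tufted cells in the bulb, stood at 6.45, 3.08 and 4.96 at P1 and 167, 242 and 106 at P7 (log2 4.85, SE 0.67, adjusted p = 0.00153). Lrp1b, a large endocytic receptor of the LDL receptor family, stood at 19, 17.6 and 14.9 and then 377, 472 and 203 (log2 4.20, SE 0.28, adjusted p = 5.27e-05). Every P7 library of these 3 genes was more than 10-fold above every P1 library.

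The water channel gene Aqp4, a defining gene of astrocyte endfeet, stood at 105, 132 and 146 at P1 and 1529.5, 2359.7 and 808 at P7, a 12.2-fold difference (log2 3.48, SE 0.30, adjusted p = 1.32e-04). Grm5, which encodes the metabotropic glutamate receptor mGluR5 of young astrocytes and of neurons, stood at 38.4, 31.7 and 30.9 and 646, 493 and 210.0 (log2 3.56, SE 0.33, adjusted p = 1.98e-04). Lgr5, a receptor for R-spondins, stood at 22.9, 14.5 and 17.6 and 392, 253 and 162 (log2 3.73, SE 0.37, adjusted p = 2.62e-04). For each of them P7 replicate 3 was the lowest P7 library and still lay above all of P1. The remaining 6 rises were Ndnf, a secreted neurotrophic factor (4.39), Hpcal4, a neuronal calcium sensor (3.89), Syt10, a synaptotagmin (3.81), Nrip3 (3.62), Pcp4l1, of the Pcp4 family (3.44), and Dpp10, an accessory subunit of potassium channels (3.36). The call of Dpp10 was lost in 5 of the 6 fits that left out a library (adjusted p up to 0.161).

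Of these 12, P7 replicate 1 was the highest P7 library in 9 and P7 replicate 3 the lowest in 12. The P14 mean lay below the P7 mean in 9 of the 12. The 3 whose P14 mean lay above the P7 mean were Aqp4 (16455 ± 1582 at P14, SD, n = 3), Grm5 (1211 ± 99.6) and Lrp1b (740.2 ± 118), whereas Lgr5 stood at 23.9, 17.9 and 30.5 and Cdhr1 at 9.94, 27.6 and 97.2.

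The 12 largest falls among called, well-read genes whose ages did not overlap ranged from -3.48 to -1.83 on the log2 scale. Tbr1 fell by more than some of them (-2.195) but was not called. Neurod6, a basic helix-loop-helix factor of differentiating glutamatergic neurons, stood at 333, 451 and 369.5 at P1 and 22.7, 42.9 and 38 at P7, an 11.1-fold fall (log2 -3.48, SE 0.37, adjusted p = 3.80e-04), and was at 0 in all P14 libraries. Dcc, the netrin receptor that steers growing axons and migrating cells, stood at 2821, 3829.5 and 3533 and 323, 305 and 439.6 (log2 -3.26, SE 0.41, adjusted p = 0.00104). Sox11, a transcription factor of immature neurons, stood at 11006, 12301 and 12598 and 2268, 1989 and 5546 (log2 -2.03, SE 0.36, adjusted p = 0.00521). P7 replicate 3 was the highest P7 library for Dcc and Sox11, and the ages did not overlap for any of the 3.

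Also among the 12 were the neuronal transcription factors Barhl2 (-2.69), Neurod2 (-2.53), Insm1 (-2.25) and Tfap2e (-1.92), together with the arrestin-domain gene Arrdc3 (-2.31), the secreted stanniocalcin Stc1 (-1.94), the ephrin Efnb2 (-1.91), the exchange factor Rasgef1b (-1.87) and the transcriptional regulator Mn1 (-1.83). The P14 mean was lower still in 11 of the 12, the exception being Rasgef1b (142 at P1 and 38.3 at P7, 48.5 at P14). Neurod2, Insm1 and Stc1 each lost the call in 5 of the 6 fits that left out a library and Tfap2e in 2, with adjusted p up to 0.126 for Insm1.

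Neurod2 and Neurod6 fell together, and the 250 bases before their RefSeq starts (GRCm38.p6) are shown for that reason, 5′ to 3′ on the gene's strand, with matches to CAGATG, the E-box that factors of this family bind, and to the CCAAT box (CCAAT), on either strand, in capitals.
Neurod2, minus strand, chr11:98329646-98329895: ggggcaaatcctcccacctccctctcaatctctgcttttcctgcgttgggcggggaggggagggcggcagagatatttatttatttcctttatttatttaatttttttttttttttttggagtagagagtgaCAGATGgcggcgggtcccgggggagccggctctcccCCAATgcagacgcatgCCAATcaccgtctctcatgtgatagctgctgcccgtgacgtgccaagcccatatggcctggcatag
Neurod6, minus strand, chr6:55681264-55681513: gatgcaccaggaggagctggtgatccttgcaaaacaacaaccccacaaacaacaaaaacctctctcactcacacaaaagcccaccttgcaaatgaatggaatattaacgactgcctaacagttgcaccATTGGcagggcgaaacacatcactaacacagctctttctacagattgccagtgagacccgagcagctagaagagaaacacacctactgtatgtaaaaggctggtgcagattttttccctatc
The Neurod2 window held 1 CAGATG and 2 CCAAT matches and the Neurod6 window 1 CCAAT match. CAGATG was found in 9.71% and CCAAT in 35.1% of the 11368 windows of the same length belonging to tested genes, so these matches are a description only.

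Genes that define astrocytes rose. Of 12 astrocyte identity genes, 9 rose and 0 fell, with a median log2 fold change of 1.75, and all 9 kept the call whichever of the 6 libraries was left out. Of the glutamate transporter genes at P1, Slc1a3 (GLAST) stood at 2066, 3281 and 2768 and Slc1a2 (GLT-1) at 1851, 2467 and 2028. At P7 they stood at 6005, 8375 and 4813 (log2 1.23, SE 0.21, adjusted p = 0.00418) and at 5718, 6358 and 3574 (log2 1.27, SE 0.20, adjusted p = 0.00255). The ages did not overlap for either gene.

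Gfap, the intermediate filament gene of mature and reactive astrocytes, went from 1.79, 2.64 and 1.65 to 168, 175 and 16 (log2 4.73, SE 0.72, adjusted p = 0.00225). The P7 libraries split, since replicate 3 held about 10-fold less Gfap than the others, and it still lay above P1. Fgfr3, a fibroblast growth factor receptor of the astrocyte lineage (3.07), Gpr37l1, an orphan receptor of astrocytes (3.53), S100b, a calcium-binding protein (2.75), and Gja1, the gap junction protein connexin 43 (1.79), rose as well. The 3 members without a call were Aldh1l1, a folate enzyme used as a pan-astrocyte marker (185, 197 and 175 at P1, 197, 279 and 301 at P7, adjusted p = 0.142), the transcription factor Sox9 (adjusted p = 0.554) and the glycolytic aldolase Aldoc (adjusted p = 0.199). Aldh1l1 overlapped between the ages, and its unadjusted 95% interval on the log2 scale was 0.06 to 0.85.

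Of 12 genes for the uptake and metabolism of transmitters, 10 rose and 1 fell (median 1.15), and 9 of the 10 rises kept the call whichever library was left out. Glul, glutamine synthetase, stood at 726, 796 and 702 at P1 and 1848, 2393 and 1272 at P7 (log2 1.26, SE 0.19, adjusted p = 0.00202). The GABA transporter gene Slc6a11 (GAT-3; 1.57), the glycine transporter Slc6a9 (2.27) and the glutamine exporter Slc38a3 (2.20) rose, as did the GABA-degrading enzymes Abat (0.68) and Aldh5a1 (0.90). The neuronal glutamine importer Slc38a1 fell, from 1083, 872 and 1155 to 704, 514 and 714 (log2 -0.69, SE 0.19, adjusted p = 0.0403), a call lost in all fits that left out a library other than P7 replicate 3.

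Of 14 genes of coupling, ion and water transport, 12 rose and 0 fell (median 1.83), 8 of them keeping the call without any one library. Kcnj10, the inward rectifier Kir4.1 that clears potassium, stood at 89.3, 118 and 104 at P1 and 724, 874 and 540.5 at P7 (log2 2.75, SE 0.17, adjusted p = 3.89e-05), the smallest adjusted p of the group. Its partner Kcnj16 (2.96), the sodium pump subunit Atp1b2 (1.71) and the bicarbonate cotransporter Slc4a4 (2.03) rose with it. The connexin 30 gene Gjb6 rose (log2 1.87, SE 0.33, adjusted p = 0.00521). The chloride genes Slc12a2 (adjusted p = 0.365) and Clcn2 (adjusted p = 0.401) were the 2 members without a call.

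Among 14 surface receptors of astrocytes, 8 rose and 0 fell (median 1.95; 7 kept the call without any one library, 12 were called without P7 replicate 3). Besides Grm5, the glutamate receptor Grm3 stood at 54.8, 53.7 and 60.1 at P1 and 309, 455 and 170.3 at P7 (log2 2.34, SE 0.29, adjusted p = 0.00102). The endothelin receptors Ednrb (1.45) and Ednra (2.73) and the adenosine receptor Adora1 (2.20) rose. S1pr1, a sphingosine-1-phosphate receptor, did not pass (93.6, 197 and 199.6 and 354, 483 and 213, adjusted p = 0.06), and passed with the P14 libraries left out of the fit (adjusted p = 0.0298).

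Of 18 secreted and matrix genes tested, out of 20 listed, 13 rose and 0 fell (median 1.85), 7 of them keeping the call without any one library. The count of rises was 8 without P1 replicate 3, P7 replicate 1 or P7 replicate 2. Without P7 replicate 2, 1 gene was called lower (Tnc), and without P7 replicate 3 another (Vcan). Apoe, the lipid carrier secreted by astrocytes, stood at 142, 248 and 142 at P1 and 1161, 1465 and 469 at P7 (log2 2.44, SE 0.36, adjusted p = 0.00191). Hapln1, a link protein that joins hyaluronan to proteoglycans, stood at 2.51, 7.05 and 9.93 and 162, 192 and 26.1 (log2 3.81, SE 0.64, adjusted p = 0.00389). Htra1, a secreted serine protease, stood at 0.717, 2.64 and 1.65 and 81.7, 104 and 13.6 (log2 4.30, SE 0.63, adjusted p = 0.00181). P7 replicate 3 was the lowest P7 library for all 3 and lay above P1. Sparcl1 (hevin, 2.03), Sparc (2.19) and the lectican Bcan (2.14) also rose. Versican, Vcan, the matrix proteoglycan of the embryonic brain, had lower values at P7 (8680.1, 7028 and 9651 at P1, 2769.5, 3507 and 6804 at P7) and did not pass (adjusted p = 0.0528), with a call when the P14 libraries were left out of the fit (adjusted p = 0.0208). Tnc, tenascin C, did not pass (adjusted p = 0.166) and did without P7 replicate 2 (adjusted p = 0.0222).

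**Figure D2:**
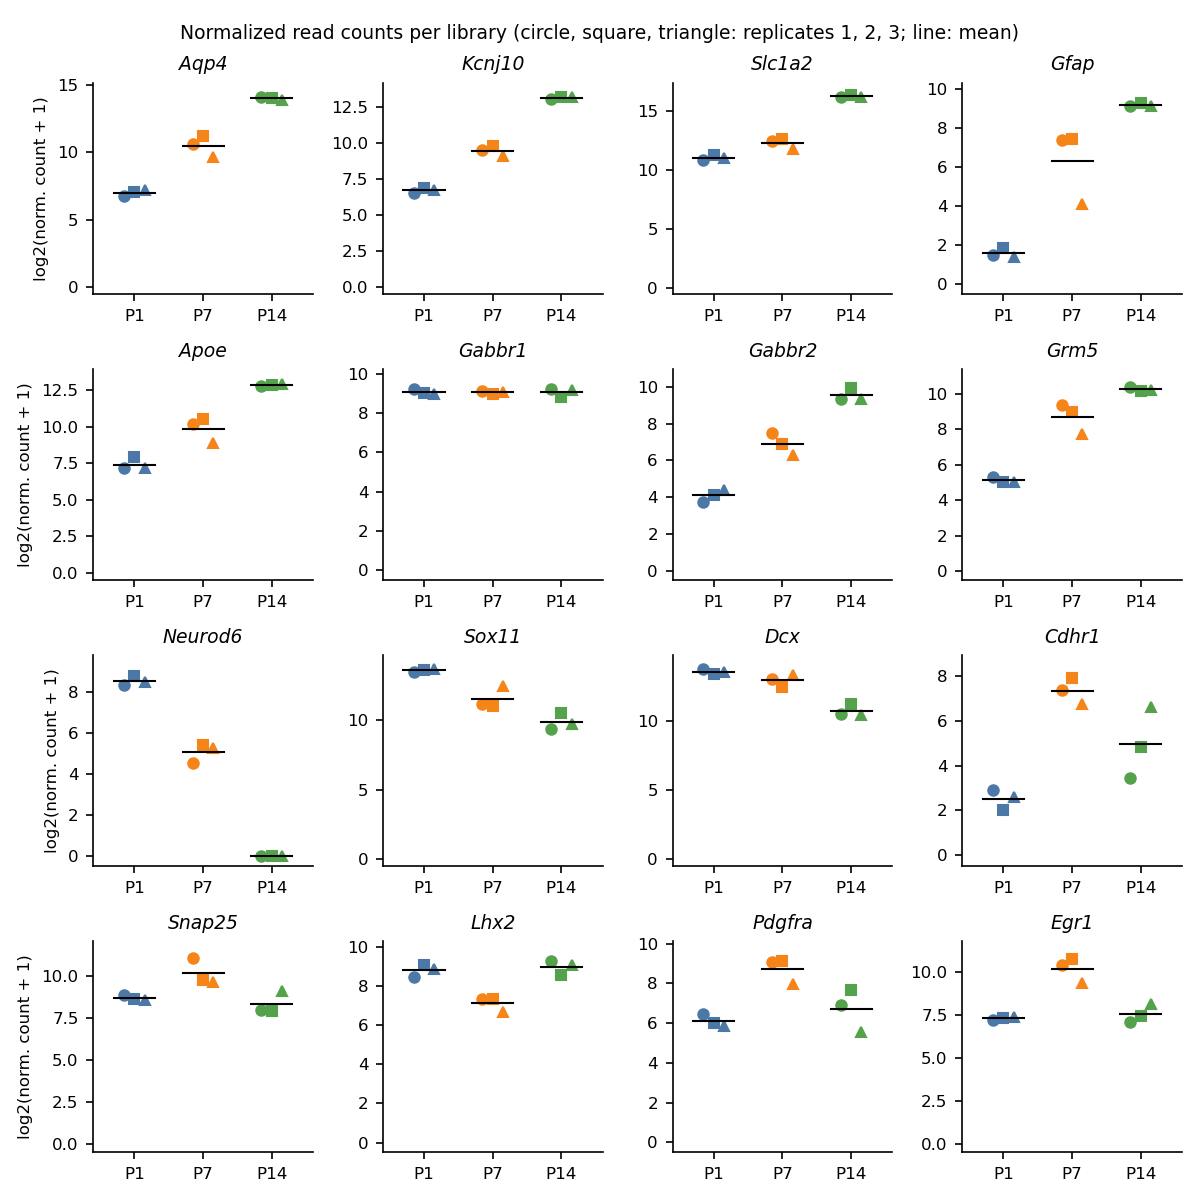
Normalized read counts of 16 genes in each olfactory bulb library at P1, P7 and P14, as log2(value + 1), with circles, squares and triangles for replicates 1, 2 and 3 and a line at the mean of the log values. In mean, Aqp4, Kcnj10, Slc1a2 and Apoe are higher at each later age, Neurod6, Sox11 and Dcx are lower at each later age, the Gabbr1 values of the ages overlap, and Pdgfra, Egr1 and Cdhr1 are highest at P7.

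In cholesterol synthesis 3 of 19 genes rose and 0 fell (median 0.33): Idi1, isopentenyl diphosphate isomerase (log2 0.93, SE 0.16, adjusted p = 0.00435), Hmgcs1, an early enzyme of the pathway (0.52), and Sc5d, a sterol desaturase (0.73). Only Idi1 kept its call without any one library, and 1 gene was called without any one of the P1 libraries or without P7 replicate 2.

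In fatty acid handling 5 of 16 rose and 0 fell (median 0.45), among them Cpt1a, which admits fatty acids to mitochondria (27.6, 40.1 and 40.3 at P1, 140.1, 172 and 88.4 at P7; log2 1.83, SE 0.26, adjusted p = 0.00168), the acyl-CoA synthetase Acsbg1 (1.55), and the desaturases Scd1 (1.25) and Fads2 (1.05). In glycolysis and lactate 3 of 17 rose and 0 fell (median 0.43), namely the phosphofructokinases Pfkp (log2 1.87, SE 0.25, adjusted p = 0.00131) and Pfkm (0.67) and the glycogen phosphorylase Pygb (0.98). Without P7 replicate 3, 5 were called higher, and in the other 5 fits that left out a library 2 were, with the Pfkm call lost. The lactate dehydrogenases Ldha (adjusted p = 0.817) and Ldhb (adjusted p = 0.667) did not pass.

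Transcription factors of glia and progenitors changed one by one, 4 of 21 rising and 1 falling (median -0.23). Without P1 replicate 1, P1 replicate 3 or P7 replicate 2 the count of rises was 2, and without P7 replicate 3 the count of falls was 3. Lhx2, a LIM homeodomain factor of neural progenitors, stood at 346, 541 and 463 at P1 and 160.4, 161 and 99.7 at P7 (log2 -1.68, SE 0.25, adjusted p = 0.0022). All P7 libraries lay below all P1 libraries, while P14 overlapped P1 (616, 371 and 537). Npas3 (log2 1.29, SE 0.19, adjusted p = 0.0021), Olig2, the factor of the oligodendrocyte lineage and of some astrocytes (log2 2.13, SE 0.26, adjusted p = 9.54e-04), Rfx4 (1.204) and Zbtb20 (0.54) rose, the last pair with calls lost in 4 and 5 of the 6 fits that left out a library. The nuclear factor I genes that drive astrocyte differentiation did not pass: Nfia stood at 1164, 1469 and 1356 and 1239, 1489.7 and 2159.5 (adjusted p = 0.485), and Nfib (adjusted p = 0.611) and Nfix (adjusted p = 0.185) had their highest P7 value in replicate 3.

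Of 14 markers of radial glia and progenitors, 3 rose and 1 fell (median -0.23), with 1 called higher without P1 replicate 1, P1 replicate 3, P7 replicate 1 or P7 replicate 2. Ptprz1, a receptor phosphatase of radial glia and precursors, rose (log2 1.44, SE 0.27, adjusted p = 0.00747), with Hes5 and Hes1, which are also Notch targets. The adhesion gene Cdh2, N-cadherin, fell, from 1978, 2214 and 2177 to 1519.6, 1623 and 1544 (log2 -0.44, SE 0.10, adjusted p = 0.0173). Its call was lost in 3 of the 6 fits that left out a library (without P1 replicate 2, P1 replicate 3 or P7 replicate 1), after quantile normalization and in limma without the trend, and 2 genes of the list were called lower without P7 replicate 2. The filament genes Nes (adjusted p = 0.718) and Vim (adjusted p = 0.48) did not pass.

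In the Notch pathway, which keeps progenitors undifferentiated and favours glia, 5 of 14 tested genes rose and 1 fell (median 0.59). Among receptors Notch3 rose (log2 1.81, SE 0.32, adjusted p = 0.00455) and Notch1 did not pass (adjusted p = 0.846). Among targets Hes5 (2.02), Hes1 (1.69), Hey2 (1.91) and Nrarp (0.99) rose and Hes6, a Hes member of differentiating neurons, fell (-1.29). Only Notch3 kept its call without any one library, and the Hes6 call was lost in all 6 such fits. The count of rises was 6 without P7 replicate 3 and 1 or 2 in the other 5 fits. Notch3 is also a mural cell gene and is itself among the 4 of 6 tested mural genes that rose. The cells behind its rise were not tested.

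In the BMP pathway 0 of 10 rose and 1 fell (median 0.37), the target Id2 (log2 -0.93, SE 0.26, adjusted p = 0.0476), a call lost in all 6 fits that left out a library. Of the 10 genes, 3 had an unadjusted p under 0.05 in limma, 0 were called higher in edgeR and 2 in DESeq2, and 2 were called higher without P7 replicate 3. DESeq2 called 1512 of all 11490 genes tested higher. In the FGF pathway 3 of 13 rose and 0 fell (median 0.60): the ligand Fgf1 (22.6, 18.1 and 23.2 at P1, 187, 237 and 43.3 at P7; log2 2.504, SE 0.49, adjusted p = 0.00869) and the receptors Fgfr3 and Fgfr2 (0.73). With the P14 libraries left out 7 were called higher, as were 2026 of all 11490 genes tested. In the Hedgehog pathway 0 of 8 rose and 2 fell (median -0.45), the coreceptors Cdon (log2 -1.12, SE 0.25, adjusted p = 0.0163) and Gas1 (-0.96). Neither Cdon nor Gas1 was called without P1 replicate 2, P1 replicate 3, P7 replicate 1 or P7 replicate 2, and 1 of them was without P7 replicate 3. Without P1 replicate 3 or P7 replicate 3, 1 gene of the pathway was called higher. Ptch1, a receptor and target, had higher values at P7 (109, 125 and 177 and 232, 272 and 197) and missed the threshold (adjusted p = 0.0524).

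Replication genes had lower values at P7. In 14 of 17 S phase genes every P7 library lay below every P1 library, against 22.6% of all genes tested. The median was -1.04, but only Pcna, the polymerase clamp, and Rrm2, a ribonucleotide reductase subunit, passed. Pcna stood at 318, 318 and 296 at P1 and 167, 162 and 184 at P7 (log2 -0.86, SE 0.24, adjusted p = 0.0428), and Rrm2 at 168, 154 and 136 and 45.5, 50.8 and 68.8 (log2 -1.47, SE 0.38, adjusted p = 0.0313). The Pcna call was lost in each of the 6 fits that left out a library and the Rrm2 call in 5. With the P14 libraries left out 14 of the 17 genes were called lower, as were 1539 of all 11490 genes tested. Of 17 mitosis genes 0 passed in limma, 4 had an unadjusted p under 0.05, 0 passed in edgeR or DESeq2, and 5 passed in limma with P14 left out (median -0.56). Mki67, the marker of cycling cells, stood at 704, 894 and 827 and 359, 705 and 593 (adjusted p = 0.314), with P7 replicate 2 inside the P1 range.

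Genes of the glutamatergic neuron lineage changed in both directions. Of 11 tested, 3 fell and 3 rose (median -1.65). The other 5 lay below P1 in every P7 library, as did 22.6% of all genes tested. The fallers were the proneural factor Neurog2 (30.8, 69.1 and 58.5 at P1, 1.23, 1.43 and 0.593 at P7; log2 -4.64, SE 0.61, adjusted p = 0.00131), which rested on 5 reads over the P7 libraries, with Neurod2 and Neurod6. Tbr1, of newborn projection neurons (773, 1055 and 1026 and 168, 276 and 186), and Eomes, of intermediate progenitors (567, 836 and 699 and 199.7, 300.2 and 179), did not pass (adjusted p = 0.199 and 0.23) and did with P14 left out (1.23e-04 and 5.44e-04).

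The risers were Cdhr1, the vesicular glutamate transporter Slc17a7 (0.717, 1.32 and 0.551 at P1, 41.8, 32.9 and 15.4 at P7; log2 3.97, SE 0.62, adjusted p = 0.00255) and the secreted guidance protein Reln (74.2, 55.5 and 82.2 and 242, 412 and 179; log2 1.89, SE 0.30, adjusted p = 0.00259). All 3 kept the call without any one library. Slc17a7 rested on 6 reads over the P1 libraries. Another vesicular glutamate transporter of projection neurons, Slc17a6, had lower values at P7 (277, 443 and 471 at P1, 143, 264 and 171 at P7). Slc17a6 did not pass (adjusted p = 0.663) and did with P14 left out of the fit (adjusted p = 0.0108). The summed level of the list was 2732 to 3887 at P1, 1136 to 1953 at P7 and 185 to 387 at P14.

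Of 20 markers of neuroblasts and olfactory interneurons, 6 fell and 0 rose (median -0.71), and 4 of the 6 kept the call without any one library. Besides Sox11 these were Sox4, its close relative (1592, 1446 and 1498 at P1, 446, 415 and 871 at P7; log2 -1.47, SE 0.24, adjusted p = 0.00301), Cd24a, a surface protein of neuroblasts (log2 -1.65, SE 0.27, adjusted p = 0.00319), and Etv1, an interneuron factor (log2 -1.05, SE 0.18, adjusted p = 0.00481). The homeobox genes Dlx2 (-1.60) and Dlx5 (-1.58) fell, with calls lost in 5 of the 6 fits. Dcx, doublecortin, stood at 13352, 10307 and 11482 and 8199.8, 5396 and 9896 and did not pass (adjusted p = 0.147). Th, the dopamine-synthesis enzyme of periglomerular cells, had higher values at P7 (1.79, 1.76 and 3.31 and 44.2, 20.7 and 8.90) and did not pass (adjusted p = 0.0562). Th did pass with P14 left out of the fit (adjusted p = 0.00397) and without P7 replicate 3.

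The summed level of this list was 51939, 44549 and 47949 at P1 and 25338, 18034 and 35633 at P7. P7 replicate 3 was again nearest to P1, and without it 9 members were called lower and 1 higher. The sum of astrocyte identity genes was lowest in that library among P7. The part of neuroblast RNA in the other results was not tested.

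Among 16 pan-neuronal genes 2 rose, 1 fell and the median was -0.08. The synaptic vesicle fusion genes Snap25 (459, 396 and 379 at P1, 2089, 836 and 794 at P7; log2 1.44, SE 0.38, adjusted p = 0.035) and Syt1 (1.40) rose and the RNA-binding protein Elavl4 fell (-0.78). Each of the 3 lost its call in 5 of the 6 fits that left out a library. Snap25 and Syt1 were highest in P7 replicate 1. Rbfox3, the neuronal nuclear antigen, was 94.3, 111 and 83.8 at P1 and 296, 126 and 86 at P7 and did not pass (adjusted p = 0.78).

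**Figure D3:**
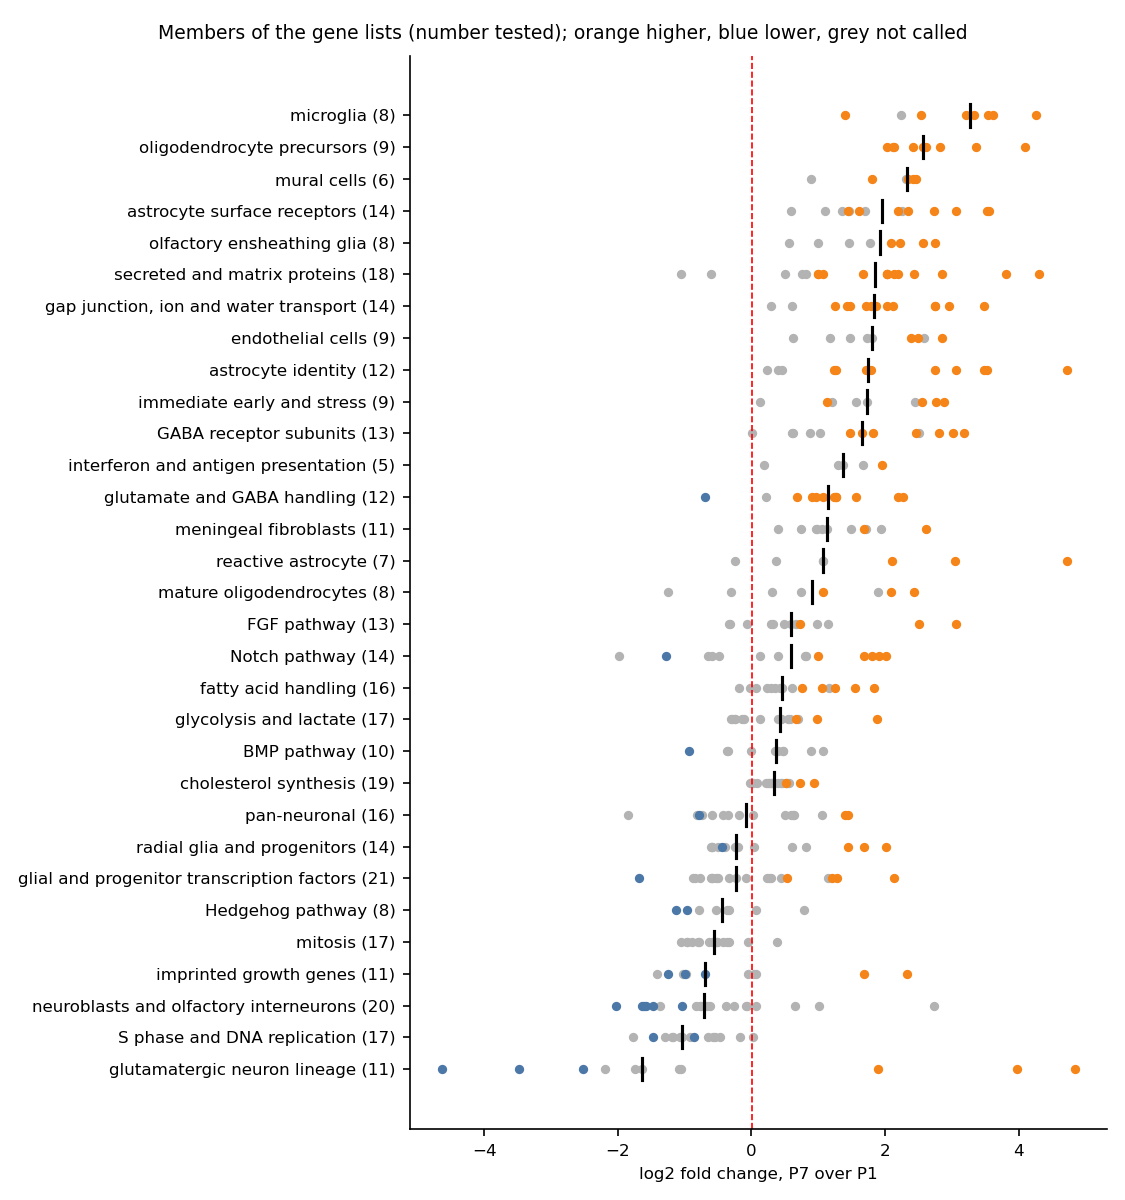
Log2 fold change, P7 over P1, of each tested member of the gene lists with 5 or more tested members, with a black bar at the list median and a dashed line at the median of all genes tested (0.01). Medians run from -1.65 for the glutamatergic neuron lineage to 3.27 for microglia.

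All 9 tested oligodendrocyte precursor genes rose (median 2.57), 6 of them keeping the call without any one library, out of 12 listed. Pdgfra, their growth factor receptor, stood at 85.7, 63 and 56.3 at P1 and 536, 551 and 245 at P7 (log2 2.61, SE 0.48, adjusted p = 0.006), and Gpr17, of committed precursors, at 3.58, 5.28 and 3.86 and 111, 118 and 52.2 (log2 4.10, SE 0.43, adjusted p = 3.80e-04). The list summed to 188 to 252 at P1 and 1592, 1612 and 766 at P7. Neu4, too low to be tested, was at 0 in all P1 libraries and held 7 reads over the P7 libraries. Of 8 mature oligodendrocyte genes tested, out of 13, 3 rose and 0 fell (median 0.91), with 1 called without P1 replicate 3, P7 replicate 1 or P7 replicate 2. Ermn and Mobp had negative log2 differences (-1.25 and -0.30) and did not pass. The myelin gene Mbp stood at 43.7, 55 and 34.2 and 61.4, 56.5 and 45.1 (adjusted p = 0.528), and Opalin was at 0 in every library.

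Of 8 microglia genes tested, out of 14, 7 rose and 0 fell (median 3.27), 4 of them keeping the call without any one library and 4 called without P7 replicate 2. Csf1r, the receptor on which microglia depend, stood at 12.2, 8.37 and 3.86 at P1 and 86, 128 and 42.1 at P7 (log2 3.22, SE 0.57, adjusted p = 0.0052), and the chemokine receptor Cx3cr1 at 1.08, 0.44 and 0.551 and 42.4, 33.6 and 20.8 (log2 4.26, SE 0.54, adjusted p = 0.00111). Cx3cr1 was near the floor at P1, and its log2 fold change ran from 2.18 to 7.15 over the alternative settings, with the call kept. The list summed to 47.4 to 75.3 at P1 and 229 to 503 at P7. Trem2, too low to be tested, was at 0 in all P1 libraries and held 10 reads over the P7 libraries.

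Of 9 endothelial genes 3 rose and 0 fell (median 1.80), with 1 called without P1 replicate 1 or P7 replicate 3 and 0 without any one of the other 4 libraries. All 9 lay above P1 in every P7 library, against 24.7% of all genes tested. Genes were filtered by their mean over all 9 libraries, P14 included, where the endothelial list summed to 312 to 1649. Members low at P1 could enter through P7 or P14, so this count says little by itself. With P14 left out 7 were called higher, as were 2026 of all 11490 genes tested. Of 6 mural genes tested, out of 11, 4 rose (median 2.33; 2 were called in each fit that left out a library other than P7 replicate 3), among them the pericyte gene Rgs5 (14.7, 20.3 and 23.7 and 114, 88.6 and 103; log2 2.34, SE 0.55, adjusted p = 0.0205) and Vtn (2.46). The Rgs5 call was lost in those 5 fits. Their sums were 23.3 to 31.9 and 108 to 147 for endothelial genes, and 90.7 to 136 and 348 to 430 for mural genes. Of 11 meningeal fibroblast genes 2 rose and 0 fell (median 1.13), Pdgfra and Igf2, with 1 called without P1 replicate 2, P1 replicate 3, P7 replicate 2 or P7 replicate 3, and P1 replicate 1 had the highest P1 sum of the list (1353 against 430 to 463).

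Of 8 tested genes of olfactory ensheathing glia, which wrap the olfactory nerve, 4 rose and 0 fell (median 1.93; 5 were called without P1 replicate 1 and 2 without any one of the other 5 libraries), among them S100b, Sox10 and Frzb. The glial transcription factor Sox10 stood at 12.2, 3.96 and 1.65 at P1 and 36.9, 30.7 and 29.1 at P7 (log2 2.57, SE 0.64, adjusted p = 0.0262), with the call lost in 5 of the 6 fits that left out a library. P1 replicate 1 was the highest P1 library for each of the 4, and the list summed to 321 there against 99.8 and 113 in the others. The hemoglobin genes Hba-a1, Hba-a2, Hbb-bs and Hbb-bt were at 0 in every library. The part of these cells in the other results was not tested.

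**Figure D4:**
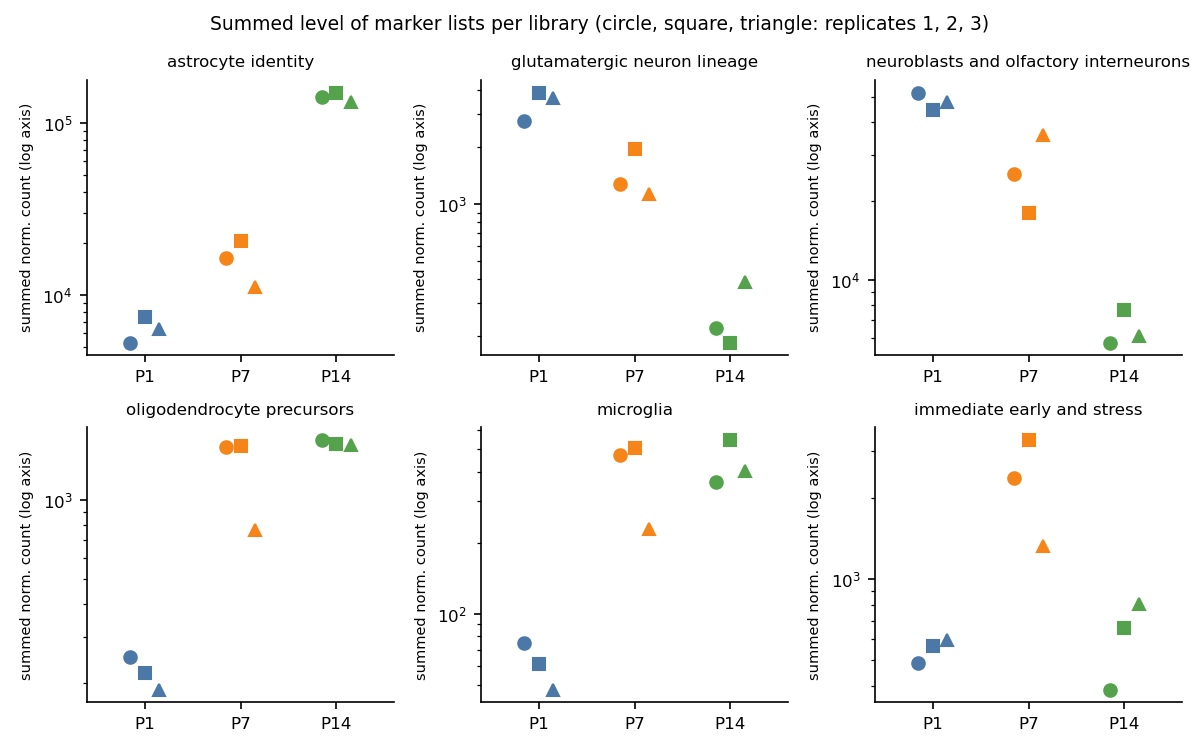
Summed normalized read counts of 6 marker lists per library on a log axis, by age, with circles, squares and triangles for replicates 1, 2 and 3. Astrocyte identity sums rise from 5290.2 to 7470 at P1 to 11210 to 20522 at P7, neuroblast sums decline, and the triangle of P7 lies nearest to P1 in 5 of the 6 panels.

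Immediate early genes, which cells switch on within minutes of stimulation and during tissue dissociation, had higher values at P7. Of 9 tested, out of 14, 4 rose and 0 fell (median 1.72). In 8 of the 9 every P7 library lay above every P1 library, against 24.7% of all genes tested. Egr1 stood at 147, 156 and 166 at P1 and 1373, 1763 and 653 at P7 (log2 2.89, SE 0.35, adjusted p = 9.09e-04), and Fos at 43.4, 45.4 and 30.9 and 311, 429 and 154 (log2 2.77, SE 0.70, adjusted p = 0.0286). P14 was near P1 again for Egr1 (135, 175 and 285). Only Egr1 kept the call without any one library, and 4 members were called without P7 replicate 3 and 1 or 2 in the other 5 fits. The list summed to 489 to 592 at P1 and 1333 to 3292 at P7, and its part in the other results was not tested.

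Of 13 GABA receptor subunit genes tested, 7 rose and 0 fell (median 1.66). Of the pair that forms the GABA-B receptor, Gabbr1 stood at 597, 514 and 489.7 at P1 and 553, 505 and 542 at P7 (533.6 ± 56.4 and 533.4 ± 24.9, SD, n = 3). The difference on the log2 scale was 0.00 with a 95% interval of -0.32 to 0.33 and an adjusted p of 0.991, and its sign turned with the scaling (-0.06 with TMM factors, 0.10 after quantile normalization). Gabbr2 stood at 12.5, 16.7 and 19.9 at P1 and 178, 119 and 78.9 at P7 (16.4 ± 3.67 and 126 ± 49.9, SD, n = 3), a 7.66-fold rise (log2 2.81, SE 0.31, adjusted p = 5.73e-04). The Gabbr2 groups did not overlap, the call was kept without any one library, and P14 was higher again (632, 991 and 641).

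The 250 bases before each of these starts (RefSeq, GRCm38.p6, 5′ to 3′ on the gene's strand) are shown because one of these partner genes passed the test and the other did not.
Gabbr1, plus strand, chr17:37045716-37045965: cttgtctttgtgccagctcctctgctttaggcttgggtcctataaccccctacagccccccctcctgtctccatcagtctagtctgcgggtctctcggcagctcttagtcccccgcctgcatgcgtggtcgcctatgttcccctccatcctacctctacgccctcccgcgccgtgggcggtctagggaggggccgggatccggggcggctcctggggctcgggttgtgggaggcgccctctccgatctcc
Gabbr2, minus strand, chr4:46991715-46991964: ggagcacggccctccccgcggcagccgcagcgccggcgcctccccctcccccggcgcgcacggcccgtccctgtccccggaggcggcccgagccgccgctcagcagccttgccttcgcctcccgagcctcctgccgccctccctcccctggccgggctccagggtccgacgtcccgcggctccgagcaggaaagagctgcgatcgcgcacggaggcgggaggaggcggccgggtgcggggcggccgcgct
None of the motifs searched was in either window, which says only that these letters are not there. The motifs searched on both strands were the E-box CAGATG and the E-box CAGCTG, the CCAAT box, the cyclic AMP element TGACGTCA, the E2F letters TTTCCCGC or TTTGGCGC, the SOX letters ACAATGG, the AP-1 letters TGANTCA and the full palindromic site of the nuclear factor I family.

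Subunits of the GABA-A receptor, the GABA-gated chloride channel, supplied the other 6 rises. Gabra2 stood at 45.2, 30.8 and 35.3 at P1 and 373, 323 and 234 at P7 (log2 3.02, SE 0.28, adjusted p = 1.98e-04), Gabrb1 at 14, 12.3 and 11.6 and 83, 114 and 42.1 (log2 2.46, SE 0.36, adjusted p = 0.00179), and Gabra4 at 55.9, 44.9 and 43.6 and 241, 190.2 and 109 (log2 1.82, SE 0.29, adjusted p = 0.00308). Gabra5 (3.18), Gabrg1 (1.47) and Gabrg3 (1.66) rose with calls lost in 4 or 5 of the 6 fits that left out a library. With P14 left out of the fit 12 of the 13 were called higher, as were 2026 of all 11490 genes tested. With any one library left out 4 to 8 were called higher, with 4 without P1 replicate 1, P1 replicate 3, P7 replicate 1 or P7 replicate 2. P7 replicate 1 held the highest sum of these genes (5277 against 3827 and 2973.5), as it did for Snap25 and Syt1.

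Set beside P14, 649 of the 872 genes that rose had a P14 mean above their P7 mean and 223 below it, 73 of these at or below their P1 mean. Of the 342 genes that fell, 225 had a P14 mean lower still and 117 above P7, 13 of these at or above P1. P7 was the highest age in mean for the oligodendrocyte precursor genes Pdgfra (117, 203 and 45.8 at P14) and Lhfpl3 (115, 119 and 117 at P14 against 202, 191 and 112 at P7) and for Gabra5 (3.98, 33.1 and 55.5 at P14). The P14 libraries are the shallowest, and their sex chromosome genes summed near P1 replicate 2 and P7 replicate 2, unlike the other P1 and P7 libraries. Shares over all genes tested were not counted, and these positions were not tested.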

How the data were processed

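The authors deposited a normalized signal per gene, 24421 symbols by 9 olfactory bulb libraries. The submitters' processing notes name FastQC, MultiQC, STAR 2.5.0a, DESeq2 1.20.0 and mm10, with no roles or order. The counting program, annotation and strand setting are not given in the sources used here, so genes with an overlapping or antisense partner, or a near-identical copy, may share reads. In each library the deposited signal values divided evenly by their smallest step (100% whole within 0.001 reads), and the quotients were taken as the reads and summed to the depths stated here. A set of 27 symbols that had turned into dates is not named.

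Groups came from the age and tissue labels. After removal of genes with a mean under 10 over the 9 libraries, P7 was compared with P1 on log2(value + 1) in limma 3.58.1 (R 4.3.3, lmFit and eBayes with a trend, two-sided), with the 3 ages sharing the spread. P-values were adjusted by the Benjamini-Hochberg method over all 11490 genes, and an adjusted p under 0.05 was called changed. The procedure was tested on simulated data. The simulated libraries all had the same spread, unlike the real ones, so sharing the spread with P14 was not tested there. The alternatives included edgeR 4.0.16 and DESeq2 1.42.0 on the recovered reads, other scalings and filters, and leaving out each P1 and P7 library.

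The genes named are Gabbr1, Gabbr2, the 12 largest rises and falls among called genes at or above the median level whose ages do not overlap (predicted genes left out), and members of 34 gene lists. The members and lists were chosen with earlier results of these data known, and a gene can be in several lists. Lists are described by counts and medians only. Levels per kilobase used merged exons of GENCODE M21. Promoter windows came from RefSeq (GRCm38.p6), with 8787 tested genes matched by symbol, 6 of the 12 rises and 8 of the 12 falls among them. Other libraries and regions were not used here, since their tables were normalized separately. Some members of the lists are counted but not reported here by name.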

Additional observations from a re-analysis of the deposited data

How the results depend on the processing

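No paired analysis was possible because the labels give no replicate numbers: those used here follow accession order and only name a library. The 1214 changed genes (872 higher, 342 lower) became 4178 (2333 and 1845) with array weights, 2260 (1512 and 748) with DESeq2 on recovered reads, 3565 (2026 and 1539) in the fit of P1 and P7 only and 808 (690 and 118) at 2-fold or more, and limma without the trend left 164 lower. Leaving out a library gave 517 to 1396 in all, 400 to 929 higher and 115 to 467 lower, with 663, 630 and 586 without P1 replicates 1, 2 and 3 and 596, 517 and 1396 without P7 replicates 1, 2 and 3. Why these counts moved was not tested. The share of calls that were higher ran from 55.8% to 85.4%. Other pseudocounts (0.1 and 8), filters, scalings, edgeR on recovered reads (1580), thinning and the Xist covariate kept the 3 counts within 1.5 times, apart from the 164 above. No called gene was called in the opposite direction under any of the 21 alternatives. No list median changed sign with TMM, median-ratio or quantile scaling. Genes with few reads were tested at low depth, above all at P14.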

Other observations

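Imprinted growth genes, which restrain or favour growth after birth, changed in both directions: 2 of 11 rose, 3 fell and the median log2 fold change was -0.70. Meg3, a maternally expressed noncoding RNA, stood at 566, 493 and 901 at P1, 2719.7, 3744 and 3116 at P7 and 167, 86.8 and 211 at P14 (log2 2.32, SE 0.31, adjusted p = 0.00131 for P7 over P1). Ndn, which encodes necdin, fell from 251, 267 and 217 to 123, 104 and 83.7 (log2 -1.25, SE 0.24, adjusted p = 0.00746), with Grb10 (-1.002) and Mest (-0.70). Igf2 rose (386, 119.8 and 107 and 345, 708 and 691; log2 1.69, SE 0.45, adjusted p = 0.0357), and it is also a gene of meningeal fibroblasts. Meg3 and Ndn kept the call without any one library. The count of rises was 1 without P1 replicate 2, P1 replicate 3, P7 replicate 2 or P7 replicate 3, and that of falls was 1 in each fit that left out a library other than P7 replicate 3.

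Of 7 tested genes of the injury response, 3 rose (median 1.07), Gfap, Osmr (3.05) and Cp (2.10), and Lcn2 was at 0 in every library. The Cp call was lost in all 6 fits that left out a library (adjusted p up to 0.214) and the Osmr call in 4, and 1 gene was called without P1 replicate 2, P1 replicate 3, P7 replicate 1 or P7 replicate 2. Of 5 genes of interferon response and antigen presentation tested, out of 12, B2m rose (54.5, 38.3 and 32 at P1, 179, 203 and 113 at P7; log2 1.96, SE 0.26, adjusted p = 0.00136) and 4 did not pass. The only tested gene of ependyma and choroid plexus was Foxj1 (7.53, 6.16 and 11 and 12.3, 9.29 and 20.8, adjusted p = 0.418), and the only tested red cell gene was Alas2 (adjusted p = 0.078).

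The labels do not give the sex of the animals. P1 replicate 2 and P7 replicate 2 held the Y-linked Ddx3y at 308.7 and 338.8 and Xist at 3.08 and 3.57. The other 4 P1 and P7 libraries held Ddx3y at 0 and Xist at 4796 to 12266. Summed over the 5 sex chromosome genes listed, the P14 libraries held 1189, 1034 and 1075, against 893 in P1 replicate 2 and 1070 in P7 replicate 2. With Xist as a covariate 1143 genes changed.

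In the 250 bases before the start, CAGATG was found in 14.3% of 890 windows of genes that rose, 8.68% of 334 windows of genes that fell and 9.71% of all 11368. The E2F letters TTTCCCGC and TTTGGCGC were found in 0.674%, 2.99% and 2.37%. Several windows can belong to one gene, and the shares are given without a test.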
